A study of Mus musculus with 12 samples.

Results

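Hippocampal gene expression was compared between Tg2576 mice given CM-414 and Tg2576 mice given vehicle, with 3 arrays titled CM-414 and 3 titled vehicle out of the 12 arrays of the series. The members were the 35303 of 41345 probe sets whose log2 value was over 4 on all 6 of these arrays, and they represent 20087 of the 22180 genes with a probe set of their own. Tg2576 mice carry human APP with the Swedish mutation under the hamster prion promoter. All groups were transgenic, so no group without an APP transgene enters the comparison. The labels give the strain as B6.Cg-Tg(APPswe)E1-2Dbo/J and an age of 16 to 18 months. The methods instead give female Tg2576 mice on a C57BL/6 and SJL background. These strain descriptions differ, the sources used here do not settle which applies, and the mice are called Tg2576 as in the paper. Treatment lasted 4 weeks, the labels place fear conditioning and the Morris water maze in its last 2 weeks, and the hippocampus was dissected 24 h after treatment ended. CM-414 is described by the study as an inhibitor of class I histone deacetylases of moderate strength that acts more strongly on HDAC6 and on phosphodiesterase 5. The sources used here give no dose or route for it. The labels call the vehicle saline, whereas the methods describe saline with DMSO and Tween-20. The remaining groups, also of 3 arrays each, received CM-695, a dual inhibitor of HDAC6 and phosphodiesterase 9, or SAHA (vorinostat, an inhibitor of histone deacetylases) with tadalafil (an inhibitor of phosphodiesterase 5).

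Histone deacetylases remove acetyl groups from histones and, in the case of HDAC6, mainly from cytoplasmic proteins such as tubulin, and their inhibition shifts the transcription of many genes in either direction. Phosphodiesterase 5 degrades cyclic GMP, which signals through protein kinase G and can reach CREB, the factor that drives immediate early genes in active neurons. In the hippocampus, transcription also follows circulating glucocorticoids, which bind the glucocorticoid and mineralocorticoid receptors, and the circadian clock, in which BMAL1 and CLOCK drive their own repressors through E-boxes.

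The 6 arrays correlated between 0.972 and 0.988 over the probe sets tested. Along the first principal component of the 12 arrays (23.6% of variance) the outlying arrays were vehicle replicate 2, replicate 3 of CM-695 and replicate 1 of SAHA with tadalafil, with scores of 35.8, 35.2 and 23.1 where the vehicle arrays 1 and 3 had -10.5 and -20.9 and the CM-414 arrays lay between -14.6 and -0.69. The markers of hippocampal neurons Wfs1, Fibcd1, Prox1, C1ql2, Neurod6 and Spink8 were present on all 12 arrays, from a log2 value of 6.61 for the lowest reading of Spink8 to 10 for Wfs1. Thalamic and habenular genes, from tissue that borders the dissected region, had a mean log2 level of 7.97 on vehicle replicate 1, 7.35 on vehicle replicate 2 and 7.68 on vehicle replicate 3, and lay between 7.34 and 7.41 on the CM-414 arrays. Choroid plexus genes ranged from 7.03 to 7.86 on the vehicle arrays and from 6.71 to 7.69 on the CM-414 arrays. No member of the thalamus list (27 genes) or of the choroid plexus list (21 genes) passed an unadjusted p of 0.01, and Ttr, the leading choroid plexus transcript, read 11.3, 13.7 and 13.2 with CM-414 and 13.7, 13.4 and 12.4 with vehicle. In bulk tissue, fewer cells of a type and less RNA per cell cannot be told apart.

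With CM-414, 864 of 35303 probe sets (2.45%) were called at an unadjusted p under 0.01 in the limma fit, where 353 would be called by chance. Of these, 539 were higher (1.53%) and 325 lower (0.921%) than with vehicle. The called probe sets included 346 genes that were higher (1.72% of 20087) and 162 that were lower (0.806%). No probe set passed an adjusted p of 0.05. The smallest adjusted p was 0.14, and those of the called probe sets ran up to 0.407, so each call below is one at the unadjusted threshold. The differences were small. The median log2 fold change was 0.36 among the called genes that were higher and -0.37 among those that were lower, 47 genes were higher by more than 0.5 and 35 lower by more than 0.5, and 2 genes were more than 2-fold higher and 2 more than 2-fold lower. The 3 CM-414 values lay wholly above or wholly below the 3 vehicle values in 6085 probe sets (17.2%) and 3874 genes (19.3%), of which 2381 lay wholly above (11.9%) and 1493 wholly below (7.43%). The median log2 fold change over all genes was 0.0091, and 52.7% of genes had a positive value.

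**Figure D1:**
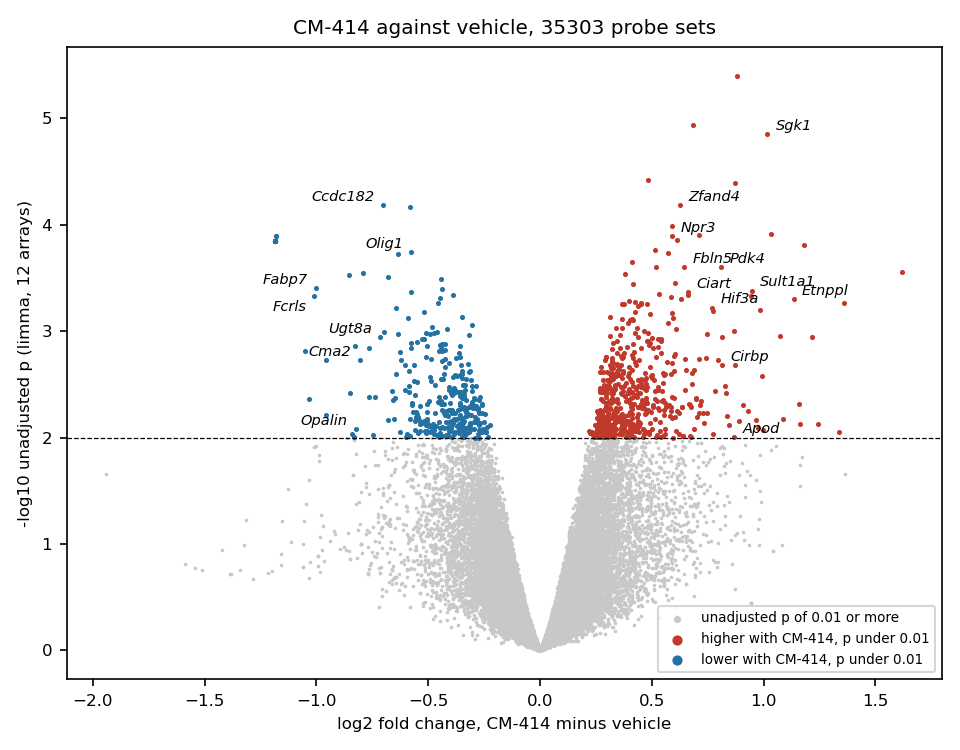
Each point is 1 of 35303 probe sets, with the log2 fold change of CM-414 minus vehicle on the horizontal axis and the negative log10 of the unadjusted p on the vertical axis. The 539 red points are called higher and the 325 blue points called lower at an unadjusted p under 0.01 (dashed line), and unlabelled points at the top include probe sets with no single gene name.

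The largest rise among called genes was that of Etnppl, an astrocyte enzyme that degrades phosphoethanolamine, a building block of membrane phospholipids. Etnppl read 8.97, 8.73 and 8.93 on the CM-414 arrays and 7.97, 7.60 and 7.65 on the vehicle arrays, without overlap. This is a log2 fold change of 1.13 (SE 0.23, adjusted p = 0.294 from limma), or 2.20-fold. Sgk1, the serum- and glucocorticoid-regulated kinase, which adjusts ion channels and transporters, had the smallest unadjusted p of all named genes (1.42e-05). Its values were 9.42, 9.60 and 9.55 with CM-414 and 8.78, 8.17 and 8.57 with vehicle, a 2.02-fold difference (log2 fold change 1.02, SE 0.14, adjusted p = 0.167 from limma). All CM-414 arrays stood above all vehicle arrays for both genes. The leading rises went on with Sult1a1, a sulfotransferase of phenols and steroids, at 0.95 (SE 0.19), with Apod, a lipid carrier secreted by glia, at 0.87 (SE 0.28), and with Pdk4, a kinase that holds back pyruvate oxidation, at 0.81 (SE 0.15). Fbln5, an extracellular protein of elastic fibres, and Zfand4, a zinc finger protein, were higher by 0.64 (SE 0.12) and 0.63 (SE 0.10). Scg5, a chaperone of a prohormone convertase, was higher by 0.67 (SE 0.21), and Npy5r, a receptor of neuropeptide Y, by 0.67 (SE 0.19). Scg5 lost its call in 10 of 19 alternatives, among them each omission of 1 CM-414 array. Vmn2r1, a vomeronasal receptor gene, and Ccl17, a chemokine, had rises of 0.71 and 0.68 from vehicle levels of at most 6.07 and 6.29.

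The microRNA precursor Mir5098 was also among the 15 largest rises, with values of 5.99, 5.85 and 5.99 against 5.27, 5.26 and 4.67 with vehicle (log2 fold change 0.87, SE 0.22). Its array signal comes from total RNA and does not tell a precursor from a mature product. The mature sequence in RefSeq (GRCm38.p6, chr5:77272767-77272787, plus strand) is shown because it is the one small RNA among these genes, with its seed, bases 2 to 8, in capitals.
mmu-miR-5098: gUUACAUGgugaagcccaguu

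The largest falls among called genes were those of Fcrls, a microglial receptor gene of the Fc receptor-like family, and Fabp7, the brain fatty acid binding protein of astrocytes and progenitor cells. Fcrls read 7.22, 6.64 and 6.89 with CM-414 and 7.90, 8.18 and 7.69 with vehicle, a 2.01-fold lower level (log2 fold change -1.01, SE 0.21). Fabp7 read 8.28, 8.79 and 8.51 against 9.75, 9.36 and 9.47 (log2 fold change -1.0, SE 0.20). Neither gene's groups overlapped. Opalin, Ugt8a, Enpp6, Fa2h and Olig1, which are on the oligodendrocyte lists, and Padi2, which is not, are described with that cell type. The other falls were Cma2, a mast cell protease, at -0.81 (SE 0.20), Ccdc182 at -0.70 (SE 0.11), Lct, a marker of dentate granule cells that encodes lactase, at -0.66 (SE 0.18), Erdr1 at -0.63 (SE 0.15), Fxyd7, a brain regulator of the sodium pump, at -0.62 (SE 0.15), Supt4b, a transcription elongation factor, at -0.60 (SE 0.19), and H4c12, a histone H4 gene, at -0.58 (SE 0.19). Supt4b read 4.18, 4.57 and 4.65 with CM-414, near the log2 minimum of 4, and lost its call in 9 of 18 alternatives.

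**Figure D2:**
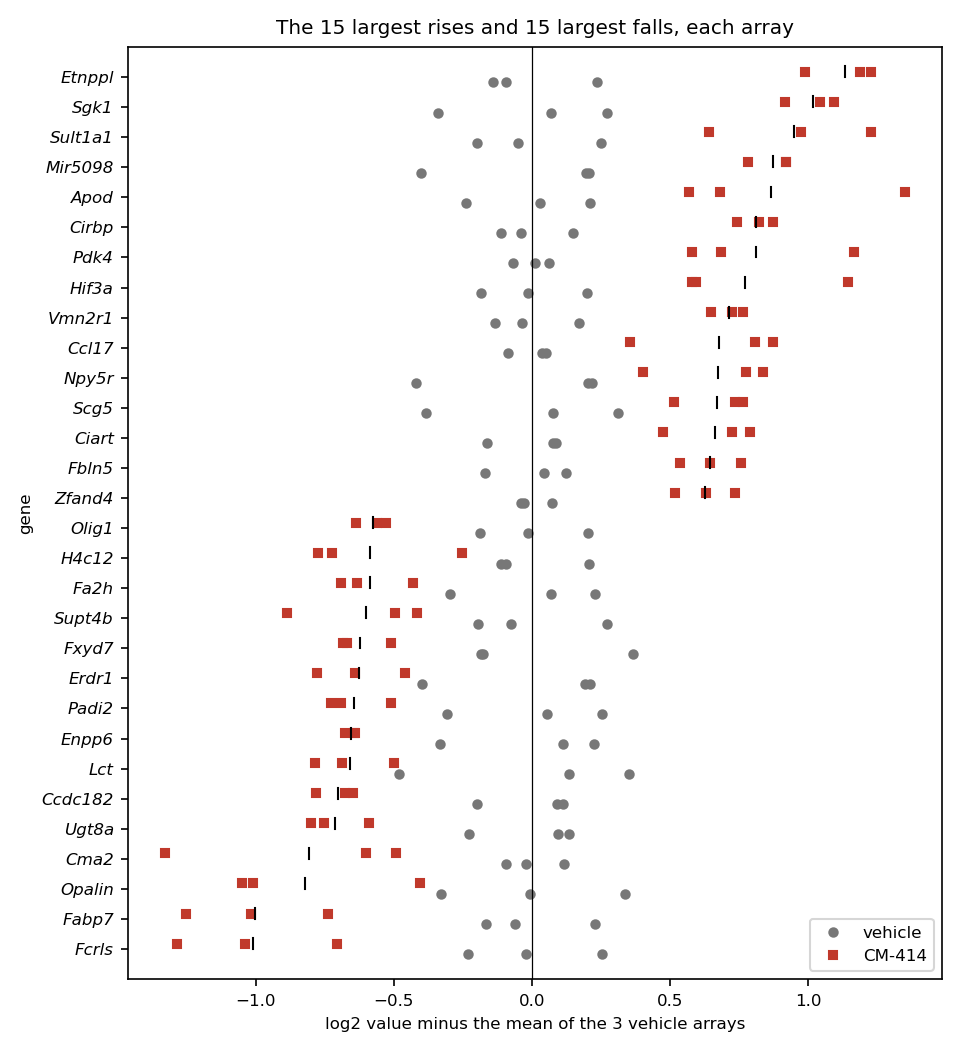
The horizontal axis is the log2 value of each array minus the mean of the 3 vehicle arrays, with grey circles for vehicle, red squares for CM-414 and a black tick for the CM-414 mean, and each row is a gene. The genes were chosen for no overlap, and the CM-414 means run from 1.13 for Etnppl to -1.01 for Fcrls.

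Genes that glucocorticoids induce were the group with the most calls in one direction. Of 27 measured members, 7 were called higher (25.9%, where 1.72% of all genes were) and none lower, 26 had a positive log2 fold change, and the median was 0.24 against 0.0091 over all genes. Lists and members were chosen with earlier results of these data known, so such shares describe a list and do not test it. The list's mean level lay between 8.37 and 8.60 on the CM-414 arrays and between 8.08 and 8.18 on the vehicle arrays. The 7 were Sgk1, Sult1a1, Pdk4, Hif3a, Arrdc2, Plin4 and Fkbp5. Hif3a, an alpha subunit of the hypoxia-inducible factor family, read 7.58, 7.57 and 8.13 with CM-414 and 6.81, 7.19 and 6.97 with vehicle (log2 fold change 0.77, SE 0.16, adjusted p = 0.307 from limma). Pdk4 read 8.12, 8.22 and 8.70 against 7.60, 7.47 and 7.55, and replicate 3 was the highest of the CM-414 arrays for both. Sult1a1 read 8.23, 7.90 and 8.48 against 7.21, 7.06 and 7.51. The arrestin-domain gene Arrdc2 and the lipid droplet gene Plin4 were higher by 0.53 (SE 0.12) and 0.50 (SE 0.12). Fkbp5, a co-chaperone that lowers the hormone affinity of the glucocorticoid receptor, read 8.13, 8.29 and 8.23 against 7.97, 7.59 and 7.86 (log2 fold change 0.41, SE 0.11). The groups did not overlap for any of these 7 genes.

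Among the members that did not pass, Cdkn1a, Lcn2, Ddit4, Klf9, Mt1, Mt2, Tsc22d3, Errfi1 and Zbtb16 also had all CM-414 arrays above all vehicle arrays, with log2 fold changes from 0.13 for Zbtb16 to 0.49 for Lcn2. This made 16 of 27 members wholly above vehicle, where 11.9% of all genes were. Dusp1, Per1 and Tat, also known targets, had values of 0.077, 0.12 and 0.044, and the receptors themselves, Nr3c1 and Nr3c2, 0.052 and -0.054, with groups that overlapped. Nr3c2 was the 1 negative member of the 27, so the list's counts take in a receptor beside the induced genes. Without vehicle replicate 2 the list held 7 calls and a median of 0.22, and without all 3 arrays that stand apart, 6 calls and a median of 0.22. Fkbp5 lost its call in 4 alternatives, among them without vehicle replicate 2 and without CM-414 replicate 2, and its log2 fold change ranged from 0.30 to 0.49, whereas Sgk1, Sult1a1, Pdk4 and Hif3a kept theirs in all 19 alternatives.

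The promoters of the glucocorticoid list were read for a palindromic glucocorticoid response element, written here as GNACANNNTGTNC, on both strands, from 250 bases before to 50 bases after each start in RefSeq. It was found in 3 of 23 members with such a window, in Sgk1, Map3k6 and Mt1, and in 145 of all 27025 genes (0.537%, or 0.475% of 32851 windows). Sgk1 has 6 annotated starts, of which the window of 1 holds it, beginning at position -188 from the start. That window (GRCm38.p6, chr10:21993640-21993939, plus strand) is shown because Sgk1 led the list, with the element in capitals.
Sgk1: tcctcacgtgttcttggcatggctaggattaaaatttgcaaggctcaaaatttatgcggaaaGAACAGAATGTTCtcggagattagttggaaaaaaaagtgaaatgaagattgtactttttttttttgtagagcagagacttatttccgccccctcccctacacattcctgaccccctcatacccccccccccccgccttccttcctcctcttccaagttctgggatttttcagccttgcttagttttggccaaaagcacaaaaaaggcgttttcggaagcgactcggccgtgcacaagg

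Among 21 clock and clock-controlled genes, 3 were called higher (1.72% of all genes were) and none lower, 15 had a positive log2 fold change (52.7% of all genes did), and the median was 0.098. The count was 2 without vehicle replicate 1 or 3 and without CM-414 replicate 1 or 2. Ciart, a repressor of BMAL1 and CLOCK, read 8.27, 8.20 and 7.95 with CM-414 and 7.57, 7.32 and 7.56 with vehicle (log2 fold change 0.66, SE 0.13, adjusted p = 0.294 from limma). Cirbp, the cold-inducible RNA-binding protein whose level follows body temperature over the day, read 8.17, 8.25 and 8.30 against 7.57, 7.39 and 7.31 (log2 fold change 0.81, SE 0.20). Cry1, a core repressor of the clock, read 7.89, 7.85 and 7.73 against 7.53, 7.57 and 7.47 (log2 fold change 0.30, SE 0.081). No CM-414 array overlapped vehicle for these genes. Bhlhe41, another repressor, was higher on every CM-414 array by a mean of 0.31 but did not pass. The genes that mark the phase of the clock most directly had smaller values with overlapping groups, 0.12 for Per1, 0.071 for Dbp, 0.12 for Nr1d1, 0.11 for Arntl and -0.018 for Clock. Ciart and Cirbp kept their calls in all 19 alternatives, and Cry1 lost its call in 5, among them without vehicle replicate 1 or 3 and without CM-414 replicate 1 or 2. No source used here gives the hour of dissection. The methods place the behavioural tests in the light phase. For CM-695 and vehicle they place killing 24 h after the last probe trial, which limits the time of day without giving it by group.

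E-boxes, CACGTG, occurred in 5 of 20 clock genes with a promoter window (25%) and in 2187 of all 27025 genes (8.09%, or 7.15% of windows). The glucocorticoid and immediate early lists had like shares, 5 of 23 (21.7%) and 5 of 27 (18.5%). The windows of Ciart and Cry1 are shown because these were the called genes of the clock list with such a motif. Ciart (GRCm38.p6, chr3:95882179-95882478, minus strand) holds 3 E-boxes, beginning at positions -116, -58 and -44 from the start, and Cry1 (chr10:85185005-85185304, minus strand) holds 1, beginning at position -60. The E-boxes are in capitals.
Ciart: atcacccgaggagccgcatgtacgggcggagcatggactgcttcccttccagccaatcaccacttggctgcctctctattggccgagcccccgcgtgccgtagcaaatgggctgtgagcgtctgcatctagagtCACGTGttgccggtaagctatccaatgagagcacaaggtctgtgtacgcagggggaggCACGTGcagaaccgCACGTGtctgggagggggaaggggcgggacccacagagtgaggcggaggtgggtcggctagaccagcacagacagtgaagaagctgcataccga
Cry1: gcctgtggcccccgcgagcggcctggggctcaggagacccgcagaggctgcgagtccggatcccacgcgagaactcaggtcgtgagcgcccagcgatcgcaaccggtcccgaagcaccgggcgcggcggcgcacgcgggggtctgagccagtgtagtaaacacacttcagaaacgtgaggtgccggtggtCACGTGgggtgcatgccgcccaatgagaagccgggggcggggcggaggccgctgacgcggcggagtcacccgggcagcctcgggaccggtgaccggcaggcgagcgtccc

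**Figure D3:**
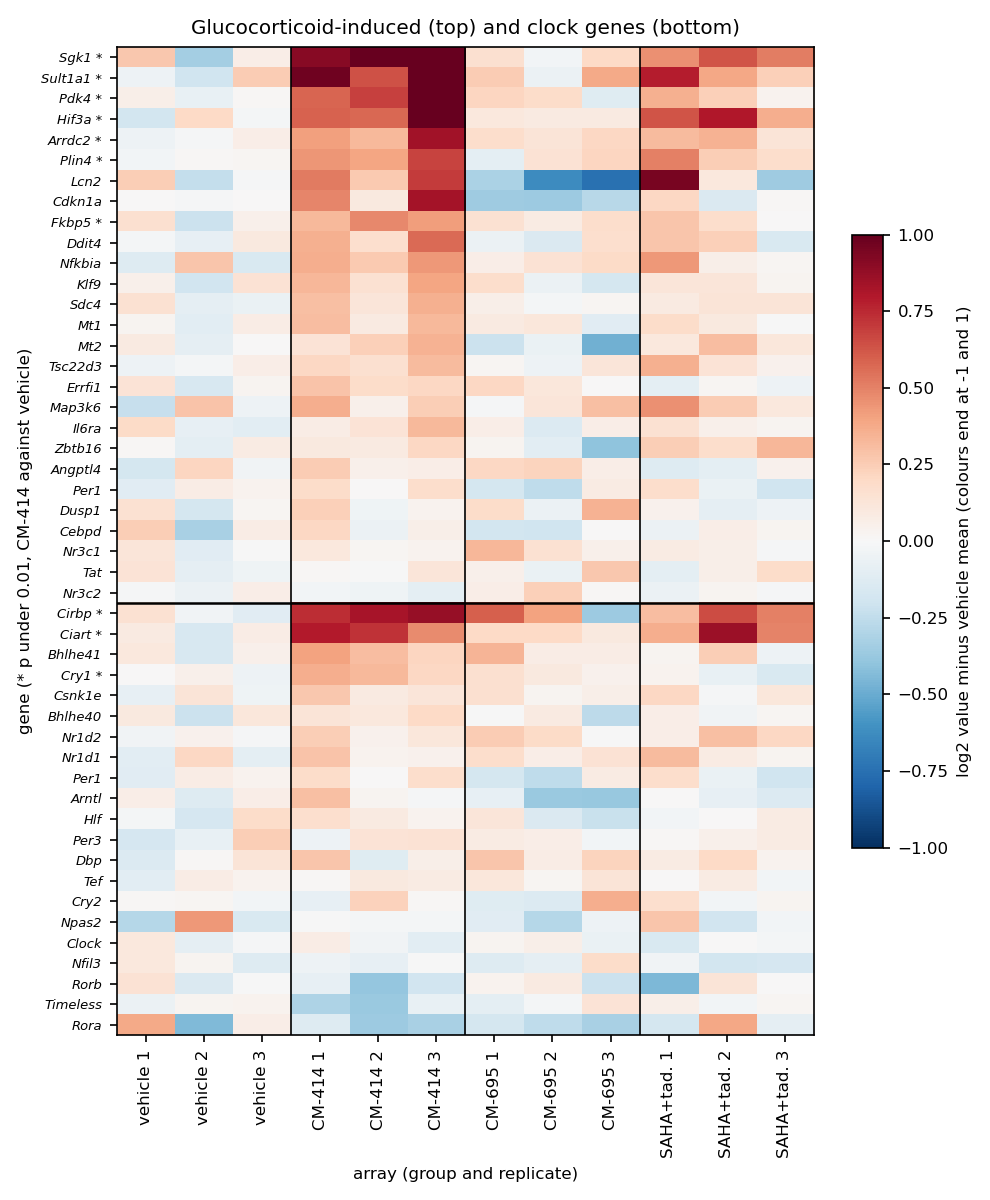
Rows are the 27 genes of the glucocorticoid list and the 21 clock genes, columns the 12 arrays, and colour the log2 value minus the vehicle mean, with asterisks at an unadjusted p under 0.01 for CM-414 against vehicle. The CM-414 columns are red in the upper rows, from Sgk1 (1.02) to Fkbp5 (0.41), and Cirbp (0.81) and Ciart (0.66) lead the lower block.

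Some genes of oligodendrocytes were called lower, and most did not pass. Of 20 genes of oligodendrocyte precursors and newly formed oligodendrocytes, 5 were called lower (0.806% of all genes were) and none higher, with a median log2 fold change of -0.11. Olig1, a transcription factor of the whole lineage, read 8.47, 8.55 and 8.58 with CM-414 and 9.10, 8.93 and 9.31 with vehicle (log2 fold change -0.58, SE 0.10, adjusted p = 0.206 from limma). Ugt8a, which makes the galactosylceramide of myelin, read 9.07, 9.11 and 9.28 against 10, 9.64 and 9.96 (log2 fold change -0.72, SE 0.16). Enpp6, a choline phosphodiesterase that marks newly forming oligodendrocytes, read 6.52, 6.56 and 6.56 against 7.31, 6.87 and 7.42 (log2 fold change -0.65, SE 0.20). C1ql1, a secreted synapse organiser that precursors express, was lower by 0.46 (SE 0.095), and Sox10, the lineage's other defining factor, had -0.45 (SE 0.14). In all 5 the CM-414 arrays lay below the vehicle arrays. The precursor markers Pdgfra, Cspg4, Vcan and Ptprz1 had values of 0.079, -0.098, 0.090 and 0.035 and did not pass, and Olig2 had -0.11.

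In the list of mature oligodendrocytes, 5 of 26 genes were called lower and 1 higher (0.806% and 1.72% of all genes were), 11 had a positive log2 fold change, and the median was -0.070. The list's mean level overlapped between the groups, at 8.88 to 9.19 with CM-414 and 8.82 to 9.28 with vehicle. Opalin, a membrane protein of myelinating cells, read 6.58, 7.19 and 6.54 with CM-414 and 7.59, 7.26 and 7.93 with vehicle, so that replicate 2 of each group nearly met (log2 fold change -0.82, SE 0.26). Fa2h, which hydroxylates the fatty acids of myelin lipids, read 8.60, 8.54 and 8.80 against 9.30, 8.94 and 9.46 (log2 fold change -0.59, SE 0.15). Cryab, a small heat shock protein abundant in oligodendrocytes, read 9.17, 9.35 and 9.32 against 9.96, 9.54 and 10 (log2 fold change -0.55, SE 0.15). Ugt8a is on both lists. Ppp1r14a, an inhibitor of myosin phosphatase, had -0.59 (SE 0.19), with groups that overlapped. Padi2, which citrullinates myelin basic protein but is on neither list, was lower by 0.64 (SE 0.17). Apod, the member called higher, read 10.8, 10.7 and 11.5 against 10.3, 9.89 and 10.2, and it lost its call in 11 of 19 alternatives, the replicate block and 5 of the 6 omissions of 1 array among them (log2 fold change 0.63 to 1.02). The structural myelin genes Mbp, Mog, Mobp, Mal and Cldn11 had values of -0.16, -0.16, 0.22, 0.22 and 0.11, and none passed.

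The oligodendrocyte calls leaned on which vehicle arrays entered. Without vehicle replicate 2, the array with the lowest values of most of these genes within its group, 6 precursor genes and 6 mature genes were called lower and the medians were -0.17 and -0.20. The same omission gave the thalamus and habenula list 4 genes called lower and a median of -0.37, where no member passed with all arrays. Without vehicle replicate 1 the counts were 3 and 2, without vehicle replicate 3 they were 3 and 1, and without CM-414 replicate 1 they were 3 and 2. Olig1, Ugt8a and C1ql1 kept their calls in all alternatives. With all arrays 24 of 27 thalamus and habenula genes were negative, with a median of -0.25, and the 2 vehicle arrays with the highest thalamus level were also the 2 with the highest Olig1, Ugt8a, Fa2h and Opalin. The part of adjoining tissue in the oligodendrocyte values was not tested.

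**Figure D4:**
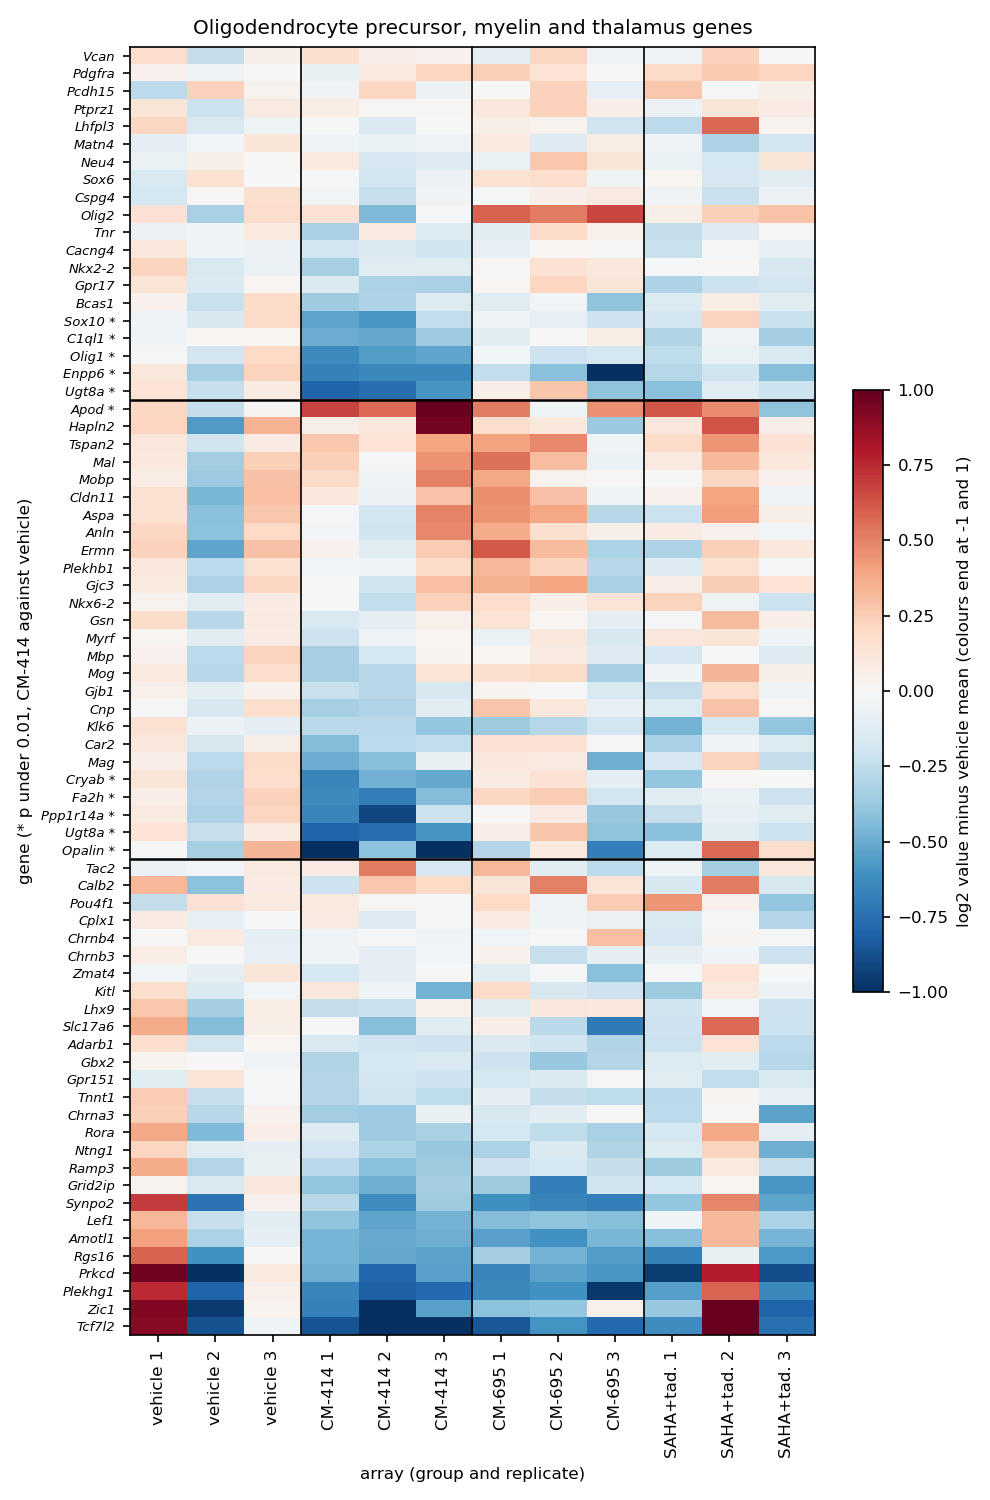
Rows are 20 oligodendrocyte precursor, 26 myelin and 27 thalamus and habenula genes, columns the 12 arrays, and colour the log2 value minus the vehicle mean, with asterisks at an unadjusted p under 0.01 for CM-414 against vehicle. Enpp6 (-0.65) and Ugt8a (-0.72) are blue on all 3 CM-414 columns, and vehicle replicate 1 is red in the lower rows, where its list mean was 7.97.

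Of 19 homeostatic microglial genes, 3 were called lower (0.806% of all genes were) and none higher, 15 were negative and the median was -0.25. The called genes were Fcrls, Cst3, a protease inhibitor, at -0.33 (SE 0.093), and Crybb1, a crystallin expressed by microglia, at -0.31 (SE 0.087), and their groups did not overlap. The list's mean level lay between 7.93 and 8.07 on the CM-414 arrays and between 8.13 and 8.30 on the vehicle arrays. P2ry12, Tmem119 and Cx3cr1, the receptors and membrane protein that define these cells, had values of -0.28, -0.085 and -0.21 and did not pass. Without CM-414 replicate 3 the list's median was -0.13 and 1 gene was called. Fcrls kept its call in all alternatives. Of 31 genes of plaque-associated microglia, 1 was called higher (1.72% of all genes were), and the median was -0.11. It was Timp2, an inhibitor of metalloproteinases, at 0.26 (SE 0.082). Timp2 lost its call in 10 of 19 alternatives, among them each omission of 1 CM-414 array. Trem2 and Tyrobp, the receptor and adaptor of this state, had -0.24 and -0.33 and did not pass. Clec7a, Cst7 and Itgax had 0.36, -0.31 and -0.20 with overlapping groups. No complement gene (19 tested) and no gene of antigen presentation (22 tested) was called. In the interferon list 1 of 28 was called lower (0.806% of all genes were), Gbp3, a guanylate-binding protein, at -0.49 (SE 0.12).

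Astrocyte genes gave no single direction, beside 1.72% of all genes called higher and 0.806% called lower. Of 29 reactive astrocyte genes, 1 was called higher (Fkbp5, also on the glucocorticoid list) and 1 lower, Sox9, the factor that maintains astrocyte identity, which read 9.18, 9.12 and 9.16 with CM-414 and 9.50, 9.55 and 9.48 with vehicle (log2 fold change -0.36, SE 0.10). Sox9 lost its call in 7 alternatives, the 6 that left out 1 array among them. Gfap and Vim, the filament genes of reactive astrocytes, had 0.042 and 0.21 and did not pass. Beside them stood Etnppl at 1.13 and Fabp7 at -1.0. Among vascular genes 1 of 30 was called higher (3.33%), Slco1a4, an organic anion transporter of the blood-brain barrier, at 0.48 (SE 0.13).

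Of 34 immediate early and CREB target genes, 2 were called lower (0.806% of all genes were) and none higher, 10 lay wholly below vehicle (7.43% of all genes did), 26 were negative, and the median was -0.13. Fos read 6.79, 6.59 and 6.73 with CM-414 and 7.22, 6.83 and 7.30 with vehicle (log2 fold change -0.41, SE 0.13), and Egr2 read 7.01, 7.07 and 7.11 against 7.57, 7.39 and 7.76 (log2 fold change -0.51, SE 0.16). The groups did not overlap for either. Egr1, Egr3, Fosb, Nr4a1, Crtc1, Junb, Ier5 and Jund also lay lower on every CM-414 array, at values from -0.21 for Jund to -0.48 for Egr1, without passing, and Arc had -0.46 with groups that overlapped. Bdnf and Npas4 had 0.034 and -0.032. Fos lost its call in 8 alternatives and Egr2 in 6. With each array centred on its median, or without any one of vehicle replicates 1 and 3 and the CM-414 arrays, neither was called.

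The core of the cAMP response element, TGACG, occurred in 18 of 27 of these genes with a promoter window and in 6228 of all 27025 genes (23%, or 20.8% of windows), and the whole element, TGACGTCA, which contains this core, in 2 of 27 and in 549 genes (2.03%, or 1.79% of windows). The core was in 8 of 23 glucocorticoid genes (34.8%) and 7 of 20 clock genes (35%). The window of Fos (GRCm38.p6, chr12:85473640-85473939, plus strand) is shown as the called gene that is the standard readout of this pathway, with 2 such cores in capitals beginning at positions -129 and -66 from the start.
Fos: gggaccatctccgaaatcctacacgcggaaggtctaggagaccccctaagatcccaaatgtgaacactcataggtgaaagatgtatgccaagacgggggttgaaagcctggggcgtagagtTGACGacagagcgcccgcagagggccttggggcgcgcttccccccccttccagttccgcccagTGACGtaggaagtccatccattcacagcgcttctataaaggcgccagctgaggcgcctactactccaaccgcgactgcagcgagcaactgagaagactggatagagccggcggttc

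Lists of protein folding and degradation held few calls, most of them higher. Of all genes 1.72% were called higher, and 3.44% of those at a mean log2 level of 8 to 10, where these lists had their mean. In the list of the unfolded protein response, 4 of 48 genes were called higher and none lower, and the median was 0.069. This count was 0 without CM-414 replicate 1, 1 without CM-414 replicate 3 or without vehicle replicate 3, and 2 without vehicle replicate 2 or CM-414 replicate 2, with the 6 arrays alone and with the replicate block. The called genes were Dnajc10, a reductase of the endoplasmic reticulum, at 0.43 (SE 0.13), Ssr1 at 0.38 (SE 0.12), Ero1a, an oxidase that forms disulfide bonds, at 0.37 (SE 0.11), and Sec63, part of the translocation channel, at 0.29 (SE 0.076). The second probe sets of Ssr1 and Ero1a had -0.089 and -0.075, and the mean over probe sets was not called for either. The chaperone Hspa5, at the head of this response, read 9.11, 8.93 and 8.96 with CM-414 and 9.08, 8.76 and 8.80 with vehicle and did not pass. Proteasome genes had 1 call in 34, Psma2, a subunit of the core ring, which was higher by 0.45 (SE 0.12), while 27 were positive and 15 lay wholly above vehicle (11.9% of all genes did). The list's mean was 8.78 to 8.83 on the CM-414 arrays and 8.66 to 8.72 on the vehicle arrays. It was 8.76 to 8.82 with CM-695 and 8.77 to 8.78 with SAHA and tadalafil, so all treatments lay above the same vehicle arrays. Ubiquitin-conjugating genes had 2 calls in 30 (6.67%, where 1.72% of all genes were called higher), Ube2d3 (0.28, SE 0.072) and Ube2k (0.28, SE 0.075). Atg3 and Uvrag, the 2 called of 38 autophagy genes (5.26%), were higher by 0.32 and 0.28. Among cytosolic chaperones Cct6a and Cct8, subunits of the ring that folds tubulin and actin, were called higher (0.33 and 0.26) and Cryab lower. These shares were 5.88% and 2.94%, where 1.72% and 0.806% of all genes were. Of the 34 members 19 were positive, and the median was 0.017. A second probe set of Cct6a had -0.20. Hspa1a and Hspa1b, the inducible forms of Hsp70, had 0.058 and 0.28 and did not pass.

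Neuronal and mitochondrial lists held few calls. None of 27 postsynaptic genes, 21 glutamate receptor subunits or 26 ion channels was called. Sv2b, a synaptic vesicle protein, read 11.6, 11.6 and 11.5 with CM-414 and 11.2 on all 3 vehicle arrays (log2 fold change 0.36, SE 0.091), the one call among 31 presynaptic genes. Gabra3, 1 of 11 GABA receptor subunits (9.09%), was higher by 0.37 (SE 0.11), and Cnih3, an auxiliary subunit of AMPA receptors, by 0.39 (SE 0.10). Tubb3, the neuronal beta tubulin, read 9.33, 9.07 and 9.11 against 9.50, 9.66 and 9.70 and was lower by 0.45 (SE 0.092). It was the 1 call among 5 listed genes that histone deacetylase inhibitors raise in cultured cells. None of the 5 was called higher, and their median was 0.034. Of 66 nuclear genes of oxidative phosphorylation, Uqcrq, Ndufs8 and Ndufb8 were called lower (-0.54, -0.38 and -0.36) and Atp5a1 higher (0.34), and the median was -0.026. The shares were 4.55% lower and 1.52% higher, where 0.806% and 1.72% of all genes were. In the serine and folate pathway Phgdh, the first enzyme of serine synthesis, was lower by 0.51 (SE 0.16) and Mthfd1l higher by 0.41 (SE 0.11). Each was 1 of 25 genes of that list (4%). Mark3 and Dyrk1a, kinases of tau, were higher by 0.32 and 0.26. They were 2 of 20 genes of tau and its kinases (10%, where 1.72% of all genes were called higher), and the list's median was 0.058. Without vehicle replicate 2 no gene of this list was called. Of 24 genes of App processing 1 was called lower (0.806% of all genes were), Psenen, a subunit of gamma-secretase, at -0.27 (SE 0.084).

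The genes of the drug targets themselves showed no call. The 95% interval of the log2 fold change was -0.38 to 0.32 for Hdac1, -0.19 to 0.17 for Hdac2, -0.098 to 0.34 for Hdac3, -0.29 to 0.11 for Hdac6, -0.33 to 0.25 for Hdac8 and -0.25 to 0.21 for Pde5a. Mouse App had an interval of -0.060 to 0.25, and the human transgene was not measured separately. Pde9a was higher on each CM-414 array (8.11, 8.20 and 8.10 against 8.02, 7.92 and 7.82, interval 0.026 to 0.405) without passing. Around these targets 1 of 30 genes of phosphodiesterases and cyclic GMP signalling was called, Npr3, the clearance receptor of natriuretic peptides, which read 8.26, 8.32 and 8.39 with CM-414 and 7.91, 7.68 and 7.60 with vehicle (log2 fold change 0.59, SE 0.10, adjusted p = 0.184 from limma). Gucy1b1, the beta subunit of the nitric oxide receptor, had 0.27 without passing. In the deacetylase list Rbbp7, a histone-binding subunit of several class I complexes, was higher (10.3, 10.3 and 10.4 against 10.1, 10 and 10, log2 fold change 0.31, SE 0.068), and Hdac5, a class IIa enzyme, was lower by 0.25 (SE 0.073). Each was 1 of 18 genes (5.56%), where 1.72% of all genes were called higher and 0.806% lower.

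**Figure D5:**
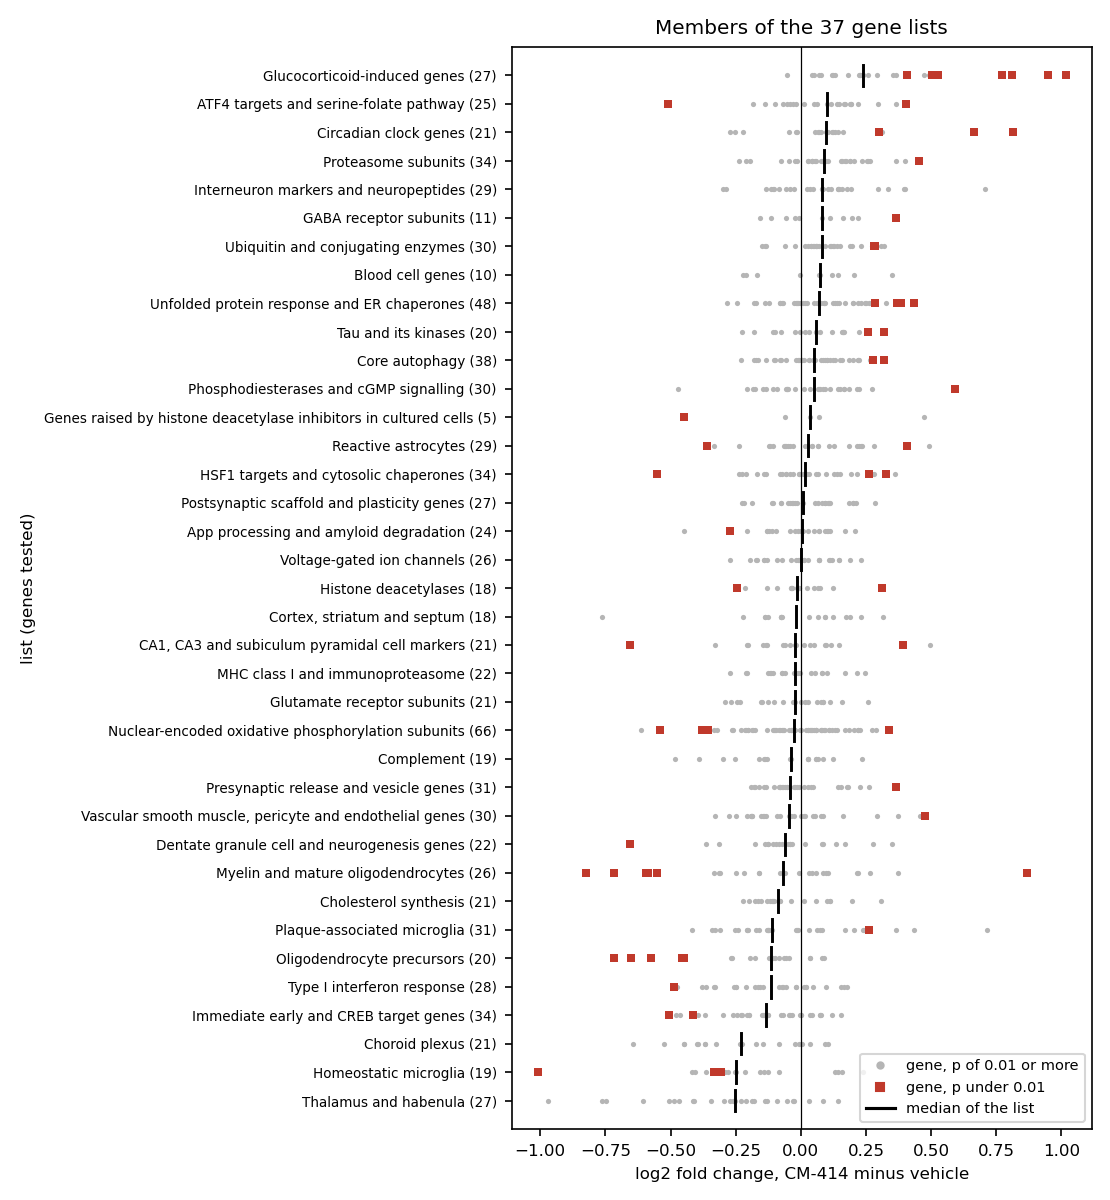
Each row is 1 of 37 gene lists with the number of genes tested, each point a member at its log2 fold change of CM-414 minus vehicle, red squares members at an unadjusted p under 0.01 and black ticks the list medians. Medians run from 0.24 for glucocorticoid-induced genes to -0.25 for thalamus and habenula genes, which hold no call.

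The other treatments were compared with the same 3 vehicle arrays, so their differences from vehicle share these controls. Because the CM-414 dose is not given, doses may differ, and so may cohorts. Differences between treatments were therefore tested directly in the same fit. Between CM-414 and CM-695, 185 of 20087 genes (0.921%) passed an unadjusted p of 0.01, with a smallest adjusted p of 0.463, and between CM-414 and SAHA with tadalafil 206 genes (1.03%), with a smallest adjusted p of 0.481. Both shares are near what the threshold gives by chance. The genes given next were chosen for their CM-414 values, and the same CM-414 arrays enter each difference, so these values are a description.

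Sgk1 read 8.67, 8.48 and 8.71 with CM-695 and 8.97, 9.14 and 9.02 with SAHA and tadalafil, so that the latter lay between vehicle and CM-414. The CM-414 mean exceeded theirs by 0.91 (95% interval 0.602 to 1.21) and 0.48 (0.176 to 0.787) on the log2 scale. Against vehicle, Pdk4 had 0.81 with CM-414, 0.094 with CM-695 and 0.21 with SAHA and tadalafil, and Fbln5 had 0.64, 0.055 and 0.071. Olig1 had -0.58, -0.14 and -0.16 in the same order, and Tubb3 -0.45, -0.13 and -0.017. Of the 15 largest rises, 10 differed from CM-695 at an unadjusted p under 0.01, 3 from SAHA with tadalafil and 3 from both. Of the 15 largest falls, 5, 3 and 1 did. Some other leading genes moved alike with CM-695. Npy5r had 0.67 with CM-414, 0.70 with CM-695 and 0.62 with SAHA and tadalafil, and Erdr1 had -0.63, -0.70 and -0.24. Etnppl, with 7.96, 6.95 and 8.02 under CM-695 and 8.16, 8.24 and 8.17 under SAHA and tadalafil, was above both on every CM-414 array. Ciart and Hif3a had 0.57 and 0.60 with SAHA and tadalafil, and the 95% intervals of their difference from CM-414 were -0.20 to 0.39 and -0.19 to 0.53. Ugt8a and Fa2h had -0.021 and 0.095 with CM-695, and Fcrls had -0.78 with CM-695 and -0.54 with SAHA and tadalafil. The median of the glucocorticoid list was 0.088 with CM-695 and 0.12 with SAHA and tadalafil, beside 0.24 with CM-414. That of the homeostatic microglial list was -0.090 and -0.041, beside -0.25. In other lists CM-414 did not have the largest median. That of the proteasome list was 0.10 with CM-695 and 0.090 with SAHA and tadalafil, beside 0.087 with CM-414. That of the unfolded protein response was 0.17 and 0.0096, beside 0.069.

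The share of genes called higher grew with the level of the gene. It was 0.377% at a mean log2 level of 4 to 6, 1.15% at 6 to 8, 3.44% at 8 to 10 and 4.68% above 10, where the share called lower was 0.792%, 0.786%, 0.707% and 1.56%. The glucocorticoid, clock, unfolded protein response, proteasome and ubiquitin lists had their mean level between 8 and 10. For them 3.44% is a nearer comparison than the share of all genes. Without vehicle replicate 2, the array with the highest first-component score, the shares called higher were 0.886%, 0.985%, 1.39% and 2.73%, and those called lower 0.698%, 1.10%, 1.09% and 1.07%. Without all 3 arrays that stand apart they were 0.999%, 1.47%, 2.87% and 4.00% higher and 0.962%, 1.5%, 1.66% and 1.85% lower, so the growth with level was present in each fit. Without vehicle replicate 2 no proteasome gene was called and 26 of 34 had a positive value, and Ube2d3 kept its call in all alternatives.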

How the data were processed

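Affymetrix Mouse Gene 2.0 ST arrays were used for hippocampal RNA, 12 arrays in 4 groups of 3. Per the labels, the authors deposited log2 values after background correction and normalization with RMA (version not given in the sources used here). Quantile normalization within RMA gives all arrays a like distribution, so a shift of most genes at once cannot be seen. Precision is limited by the 3 arrays of a group, which carry no count depth (median SE of a log2 fold change 0.126).

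Groups came from the labels. The arrays of a group are labelled as biological replicas. Probe sets over log2 4 (16 on the linear scale) on all 3 CM-414 and all 3 vehicle arrays were tested two-sided by lmFit and eBayes of limma 3.58.1, under R 4.3.3 (all 12 arrays in 1 fit of 4 group means, 8 residual and 3.12 prior degrees of freedom), with Benjamini-Hochberg adjustment over all 35303. An unadjusted p under 0.01 counts as called, as in the methods. The paper cites earlier work for treatment with CM-414, and its own methods describe dosing only with CM-695 or vehicle. No source used here says whether the CM-414 and vehicle mice were treated together. A difference of cohort or day therefore cannot be told apart from treatment, and p-values measure only the spread between these arrays. Of 41345 probe sets, 23521 have 1 symbol in the platform annotation, 1820 several and 16004 none, and a gene is represented by its brightest probe set. Named are the 15 largest rises and falls among called, non-overlapping genes with a single, non-systematic symbol, up to 4 called members of each of 37 lists, and the drug targets, App and Hsp70 genes. Further list members with values were named after these were seen. Members and lists were chosen with earlier results of these data known. Of 1021 list genes, 922 were tested. Promoters and the miRNA are from RefSeq (GRCm38.p6), and 57 of 69 called named genes had a promoter window. Each window is read 5′ to 3′ on the gene's own strand. The fit was tested on simulated data. Figures were drawn with matplotlib 3.10.9.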

Additional observations from a re-analysis of the deposited data

How the results depend on the processing

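The count of 864 called probe sets moved to 1531 with array weights, to 1319 without the 3 arrays that stand apart (703 higher and 616 lower), and, over fits that left out 1 array, between 448 (without CM-414 replicate 1) and 816 (without vehicle replicate 2, 421 higher and 395 lower), and stayed within 1.5 times under the other settings. At an adjusted p under 0.05 the count was 0, with 3302 probe sets at an unadjusted p under 0.05, and became 2 with an intensity trend, 25 with array weights, 2 with listed genes only, 14 without the arrays that stand apart, and 0 in each fit that left out 1 array. The 14 each list several microRNA precursors and all had a log2 fold change of -1.38 (adjusted p = 0.00314 from limma). The same 14 were among the 25, at -1.27 or -1.28. With values this alike, they cannot be counted as 14 separate signals. Sgk1 was 1 of the 25 and 1 of the 2 among listed genes (adjusted p = 0.0198 and 0.0483 from limma).

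Same-numbered arrays of the groups did not deviate together (correlations of 0.00631, -0.142 and -0.123), so the numbers were not taken as pairs. With the number as a replicate block, 675 probe sets were called, 582 of them among the 864. Of 69 called named genes 22 kept the call in every alternative, 47 lost it in at least 1, and none changed sign. Signs of uncalled targets turned. The log2 fold change of Hdac2 (-0.012) became 0.00539 with array weights and 0.00823 without the arrays that stand apart, and ranged from -0.0278 to 0.00823 over omissions of 1 array. The log2 fold change of Pde5a (-0.021) ranged from -0.0749 to 0.0586 (0.0124 without CM-414 replicate 1), and the log2 fold change of Hdac1 (-0.035) from -0.133 to 0.107 (0.0249 without CM-414 replicate 1). The causes were not tested. Signal near the log2 minimum and 3 arrays a group limit what low genes can show.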

Other observations

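Small nucleolar RNAs, which guide the chemical modification of ribosomal RNA, lay lower with CM-414 in 64 of 74 measured genes, with a median log2 fold change of -0.23 against 0.0091 over all genes, 34 of them wholly below the vehicle arrays (7.43% of all genes were) and 2 called lower (0.806% of all genes were). Zinc finger genes, grouped by symbol alone, had 14 of 374 called higher and 4 called lower, where 1.72% and 0.806% of all genes were, and a median of 0.047. Of 22 histone genes 1 was called lower, H4c12, and 18 were negative. Cytosolic ribosomal protein genes had 1 call in 81. Among 14 probe sets that each list several microRNA precursors, the log2 fold change was -1.38 without the arrays that stand apart, and 1 of 2 probe sets past the adjusted threshold with an intensity trend lists a gene together with its pseudogene, so neither is named. No explanation was weighed for these values.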
